A study of Mus musculus with 30 samples.

Results

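Immediate early genes are the genes whose transcripts rise within minutes of a stimulus without new protein synthesis. Here 10 of the 56748 genes in the deposited count table were taken by name: Fos, Fosb, Jun, Junb, Egr1, Egr2, Atf3, Nr4a1, Nr4a3 and Ier2. They were followed mouse by mouse in quadriceps muscle across 8 groups. The list of names was drawn up with earlier results of these data known, and all 10 passed the filter on low counts.

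Calcium entry, stretch, injury and inflammatory signals all reach these genes through kinases that act on factors already bound at their promoters, such as SRF with its Elk partners and CREB. Their products are themselves transcription factors. Fos, Fosb, Jun, Junb and Atf3 are leucine zipper proteins that bind AP-1 and cyclic AMP response sites as dimers, Egr1 and Egr2 are zinc finger factors, and Nr4a1 and Nr4a3 are orphan nuclear receptors. In skeletal muscle they are known for short bursts after contraction or damage, after which the transcripts are degraded quickly.

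The mice were a model of myotonic dystrophy type 1 (DM1), a disorder in which expanded CUG repeat RNA holds MBNL splicing factors in the nucleus. HSA-LR20b mice carry a human skeletal actin transgene with a long CTG repeat on the FVB/N background, are homozygous and express the repeat in skeletal muscle only, so that repeat expression in other tissues is not modelled. Wild-type FVB/N mice (WT, n = 5) and HSA-LR20b mice that were not treated (NT, n = 8) were the reference groups. The other HSA-LR20b mice were injected by tail vein from 8 weeks of age and killed by carbon dioxide 2 weeks after the last injection. Muscle was harvested straight away and flash frozen, with no interval between death and freezing given for each mouse. They received pacDNA-L9, a bottlebrush polyethylene glycol polymer that carries the antisense oligonucleotide L9 against the repeat. It was given to 4 mice at 5.3 mg/kg, to 3 at 21.2 mg/kg and to a further 3 at 42.4 mg/kg. Controls received L9 without polymer at 5.3 mg/kg (free L9, n = 3), the polymer without oligonucleotide at 40 nmol (Brush, n = 2) or pacDNA with a scrambled sequence at 5.3 mg/kg (pacDNA-Scr, n = 2). The higher pacDNA-L9 doses were built up by repeated injections, so dose and the number of injections cannot be told apart.

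Each of the 30 libraries held 13605309 to 26956558 counted reads, with a median of 20141850.5. A set of 6 libraries (NT 7 and 8, pacDNA-L9 5.3 mg/kg C and D, pacDNA-L9 21.2 mg/kg C and free L9 C) was deposited separately and stood apart on the first principal component, which held 59.3% of the variance. All 37 mitochondrial genes had counts of 0 in 5 libraries. The markers of skeletal muscle fibres were abundant in every group, with a summed level of 119016 to 220617 CPM (reads per 1000000 counted reads) over the groups. Levels below are CPM after TMM scaling, 1 value per mouse.

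The upstream promoter sequence of 8 members was at hand from RefSeq (GRCm38.p6, 250 bases before the annotated start): Fos, Fosb, Jun, Junb, Egr2, Atf3, Nr4a1 and Nr4a3. Of these, 5 are shown because the results below turn on the genes, each 5′ to 3′ in the direction of transcription. Capitals mark TGACG, the core of the cyclic AMP response element, on either strand (the opposite strand reads CGTCA), and TATAAA.

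Fos promoter, chr12:85473640-85473889, plus strand: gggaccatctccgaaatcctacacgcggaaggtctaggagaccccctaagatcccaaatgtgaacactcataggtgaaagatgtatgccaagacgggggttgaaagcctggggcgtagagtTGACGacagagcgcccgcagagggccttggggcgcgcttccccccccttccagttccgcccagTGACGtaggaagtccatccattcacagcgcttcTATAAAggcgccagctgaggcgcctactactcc
Junb promoter, chr8:84978749-84978998, minus strand: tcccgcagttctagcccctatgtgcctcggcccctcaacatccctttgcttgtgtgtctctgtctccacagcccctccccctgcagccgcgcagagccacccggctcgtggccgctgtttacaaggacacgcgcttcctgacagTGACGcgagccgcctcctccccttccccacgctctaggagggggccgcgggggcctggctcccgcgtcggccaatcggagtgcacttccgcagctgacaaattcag
Jun promoter, chr4:95052223-95052472, minus strand: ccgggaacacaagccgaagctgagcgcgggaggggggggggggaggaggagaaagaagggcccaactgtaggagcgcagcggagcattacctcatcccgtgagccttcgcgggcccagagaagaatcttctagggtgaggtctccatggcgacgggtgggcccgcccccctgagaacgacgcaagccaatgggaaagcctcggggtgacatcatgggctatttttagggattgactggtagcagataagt
Atf3 promoter, chr1:191183334-191183583, minus strand: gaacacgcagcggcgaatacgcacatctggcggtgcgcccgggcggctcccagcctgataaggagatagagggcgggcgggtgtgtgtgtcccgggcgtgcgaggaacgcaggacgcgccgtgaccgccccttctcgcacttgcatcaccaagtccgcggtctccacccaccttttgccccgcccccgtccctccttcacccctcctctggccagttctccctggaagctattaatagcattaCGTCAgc
Nr4a3 promoter, chr4:48045055-48045304, plus strand: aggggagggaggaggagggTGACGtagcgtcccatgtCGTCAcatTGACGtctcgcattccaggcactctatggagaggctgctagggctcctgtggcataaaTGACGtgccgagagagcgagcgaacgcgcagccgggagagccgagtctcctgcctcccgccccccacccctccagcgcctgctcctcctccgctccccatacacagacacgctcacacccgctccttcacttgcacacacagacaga

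The letters TGACG stood in the windows of 7 of these 8 genes, all but Jun, and in 17.77% of the 32851 promoter windows of the same length. In Fos they began 129 and 66 bases before the start, in Junb 106, in Fosb 60, and in Atf3 7 bases before it. Nr4a3 held 4 copies, at 231, 213, 205 and 147 bases, and Nr4a1 held 4. The full palindrome TGACGTCA and the AP-1 site TGACTCA were in none of the 8, against 1.546% and 4.463% of all windows. A CArG box, the site of SRF, was found only in Egr2 among the 8 (1.467% of all windows), GCGNGGGCG, the site of Egr factors, in Fosb and Nr4a1 (4.697%), and TATAAA in Fos alone (12.37%). A member was counted with a match in any of its windows, 12 windows over the 8 genes, while the background is per window. The 12 windows held 54% to 74.4% G and C bases, against a median of 52.4% over all windows. The member counts and background shares are therefore not like for like. These matches describe letters in a window and are not evidence of binding.

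In untreated DM1 muscle the transcripts differed widely in level. Per kilobase of exon, the mean level in NT was highest for Jun (51.2 CPM per kb), then Fos (33.6), Atf3 (22.3), Nr4a1 (19.6), Junb (14.1), Ier2 (9.76) and Egr1 (8.18). Nr4a3 (1.25), Fosb (0.767) and Egr2 (0.413) were the scarcest. The ranges of neighbours in this order overlapped, and the spread between mice in NT reached a coefficient of variation (SD over mean) of 119% for Fos, 166% for Fosb and 114% for Egr1, against 33.2% for Jun.

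**Figure D1:**
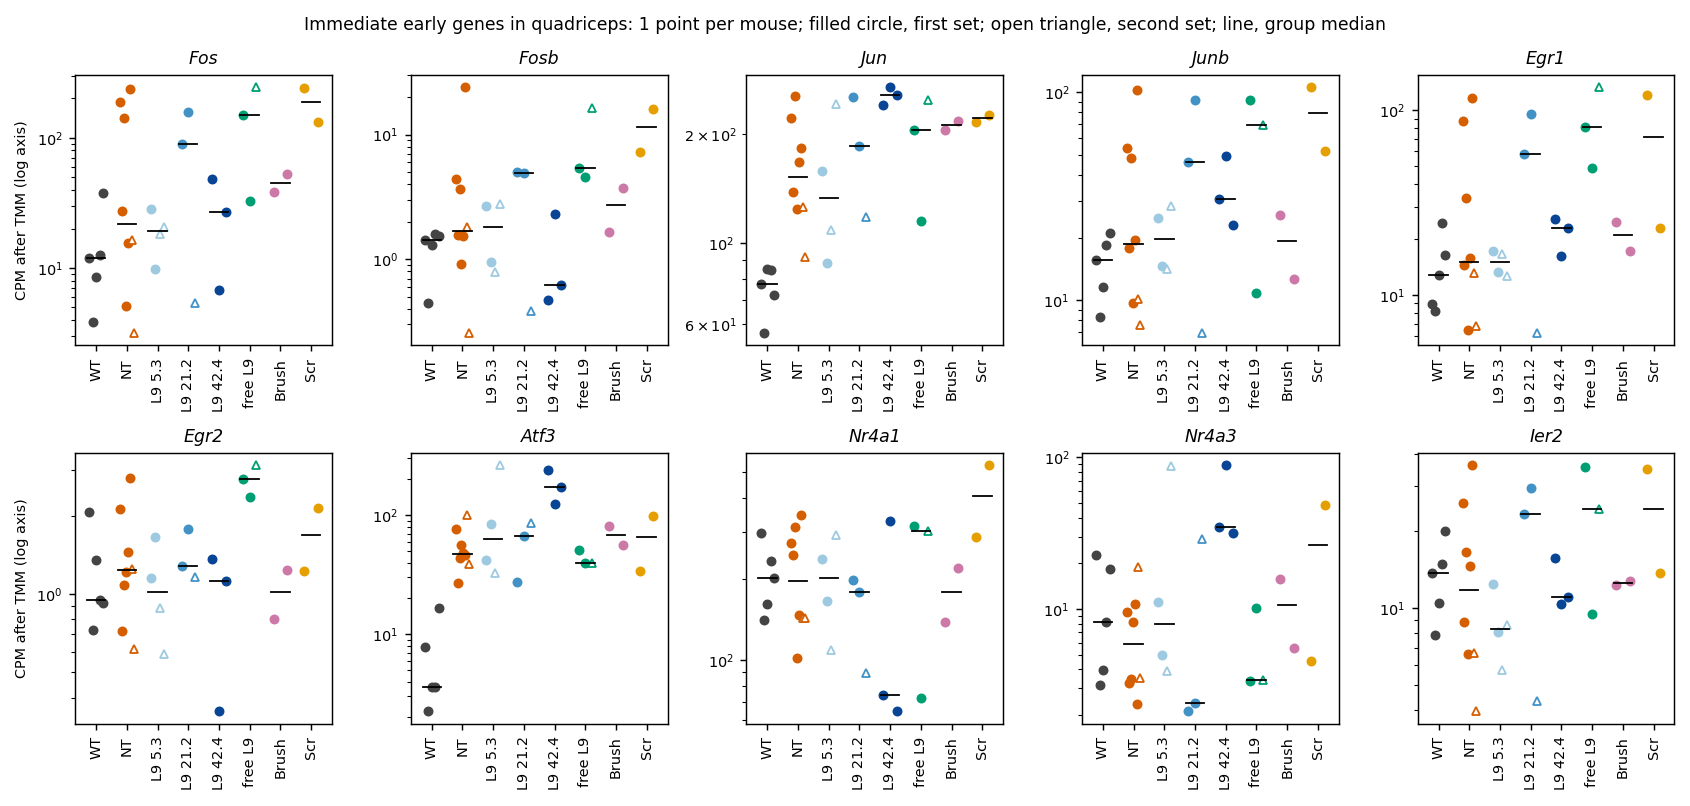
CPM after TMM scaling on a log axis for each of the 10 genes, by group, with 1 point per mouse and a line at the group median; filled circles are the first deposited set and open triangles the second. Atf3 and Jun in the 5 WT mice lie below all 8 NT mice, while Fos in NT runs from 3.18 to 236 CPM.

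The first comparison asked which of these genes differ between DM1 and wild-type muscle with no treatment. Atf3 and Jun rose in NT, and no member fell. Atf3 is a stress-induced repressor and activator of the ATF/CREB family, and Jun is the central partner of AP-1 dimers. The count was 2 of 10 members past an adjusted p of 0.05, both higher, where 4.97% of all 17518 genes tested passed (3.44% higher, 1.54% lower). The same 2 were the members whose groups did not overlap, against 4.72% of all genes. In bulk muscle, a change in the number of cells of a type and a change in RNA per cell cannot be told apart.

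Atf3 stood at 7.79, 2.25, 3.61 and 3.60 CPM in WT 1 to 4 and at 16.4 CPM in the WT mouse whose column has no number. In NT it ran from 26.8 to 99.6 CPM with a median of 46.9. Every NT mouse was above every WT mouse. All 5 WT mice were of the first set, so the 2 NT mice of the second set had no WT mouse of their own set. The log2 fold change was 3.01 (SE 0.55, adjusted p = 0.00119, edgeR), from means of 54.5 ± 23.2 CPM (SD, n = 8) and 6.74 ± 5.81 CPM (SD, n = 5). It held past the threshold in each of 23 alternative settings, with log2 values of 2.79 to 3.66.

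Jun was measured at 77.5, 56.8, 85.0 and 84.4 CPM in WT 1 to 4 and at 72.4 CPM in the WT mouse with no number. The NT mice ranged from 92.0 to 254 CPM with a median of 153. Here too the groups were separate, though the lowest NT mouse, of the second set, was close to the highest WT mouse. The log2 fold change was 1.12 (SE 0.25, adjusted p = 0.00656, edgeR) and lay between 1.00 and 1.28 over the alternatives, all past the threshold. Of the exon bases of Jun, 16.6% overlap Junos on the opposite strand, and the sources used here do not state whether reads were counted by strand.

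The partners of Jun in the Fos family had large differences that did not pass. Fos was at 3.88 to 37.8 CPM in WT (median 12.0) and 3.18 to 236 CPM in NT (median 21.8). The lowest of all 13 mice was an NT mouse, and 3 NT mice (NT 1, 3 and 6) stood at 188, 142 and 236 CPM, above every WT mouse. The log2 fold change was 2.40 (SE 0.98, adjusted p = 0.181), and it passed under DESeq2 (2.40, adjusted p = 0.0350). Fosb, a scarcer relative, had a log2 fold change of 1.91 (SE 0.84, adjusted p = 0.207), and 0.66 without NT 6. Junb, the Jun relative that often opposes Jun in AP-1 dimers, had 1.17 (adjusted p = 0.290), with 13.4% of its exon bases shared with Prdx2 and Gm65321 on the opposite strand.

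The Egr genes, Ier2 and the nuclear receptors did not pass either. Egr1, the growth response factor, was at 8.14 to 24.6 CPM in WT and 6.47 to 116 CPM in NT, with a log2 fold change of 1.37 (SE 0.68, adjusted p = 0.244). Egr2 (0.22), Ier2, a short-lived regulator named for its early response (0.16), and Nr4a1 (0.05) were near 0, and Nr4a3 was at -0.59 (SE 0.80, adjusted p = 0.726). Nr4a1 was one of the most even members between these groups, at 141 to 296 CPM in WT and 102 to 347 CPM in NT.

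Markers of other cells also moved in this comparison. In the Schwann cell list 2 of 4 genes were lower in NT, with a summed level of 29.6 to 70.3 CPM against 62.2 to 182 CPM in WT, and 1 of 4 smooth muscle genes was lower (46.4 to 105 against 79.8 to 158 CPM). Of the macrophage genes 1 of 7 was higher, with sums of 45.1 to 78.2 CPM in NT and 37.7 to 61.03 CPM in WT. Of the 10 fibre markers 1 was higher and none lower. Their part in the change of Atf3 and Jun was not tested.

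**Figure D2:**
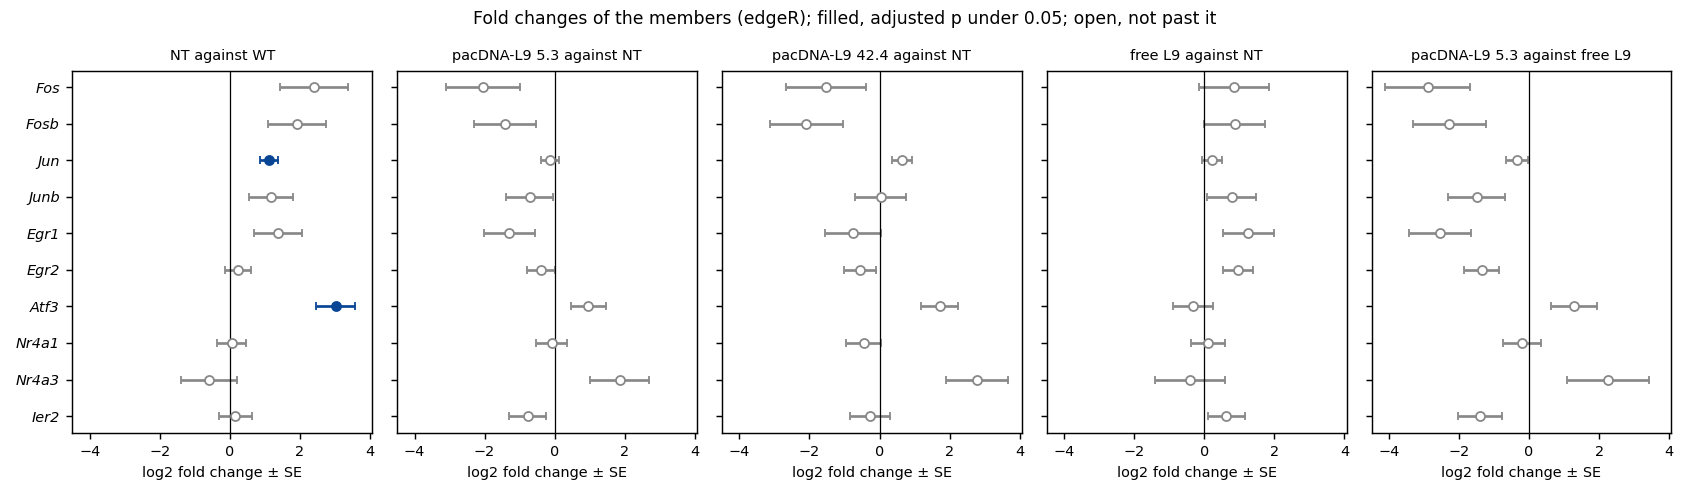
log2 fold changes (x axis) with standard errors as bars for the 10 genes in 5 comparisons; filled points passed an adjusted p of 0.05 in edgeR. Atf3 at 3.01 and Jun at 1.12 in NT against WT are the only filled points in these 5 panels.

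The treated groups were each compared with the same 8 NT mice, so these comparisons share their controls and are not independent. At 42.4 mg/kg of pacDNA-L9 no member passed, 0 of 10, where 2.57% of all genes did (1.92% higher), and 3 members had an unadjusted p under 0.05, as did 2294 of the 17518 genes (edgeR). Atf3 and Nr4a3 were nonetheless the 2 members whose groups did not overlap, where 7% of all genes had that property. All 3 mice of this group were of the first set.

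Atf3 was at 241, 125 and 172 CPM in mice A, B and C of the 42.4 mg/kg group, and no NT mouse exceeded 99.6 CPM. The log2 fold change was 1.72 (SE 0.53, adjusted p = 0.0967). Nr4a3, a nuclear receptor that is induced in muscle by beta-adrenergic signals and exercise, was at 35.0, 89.0 and 31.6 CPM in the same mice, against 2.36 to 19.0 CPM in NT. Its log2 fold change was 2.79 (SE 0.88, adjusted p = 0.108). Both passed when the second set was left out (Atf3 1.84, adjusted p = 0.0376, and Nr4a3 3.03, adjusted p = 0.0218) and under DESeq2 (adjusted p = 0.0240 and 0.0337). Neither passed when the first set was fitted with a term for 9 libraries whose column names were read by hand as a group name with a running number alone, which all 3 of these libraries share with 1 NT library (1.09, adjusted p = 0.610, and 2.74, adjusted p = 0.343).

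Other members took their own course at this dose. Jun was at 240, 269 and 256 CPM, each above at least 7 of the 8 NT mice, with a log2 fold change of 0.64 (SE 0.28, adjusted p = 0.325). Nr4a1 split the group, with A and C at 74.1 and 64.4 CPM, below every NT mouse, and B at 330 CPM. Fosb was at 0.469, 2.30 and 0.620 CPM (log2 fold change -2.09, adjusted p = 0.391), and the value moved to -0.85 without NT 6 and to -3.13 without mouse B. Fos (-1.53), Egr1 (-0.76), Egr2 (-0.56), Ier2 (-0.27) and Junb (0.03) lay inside the NT range except that Egr2 in mouse B, at 0.354 CPM, was below it.

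Macrophage markers were higher in this group, though not in it alone. Of the list, 5 of 7 were higher than in NT, and their sum was 118 to 170 CPM against 45.1 to 78.2 CPM, with no marker at 0 throughout. Neutrophil markers stayed near the detection limit, with sums of 0.469 to 3.54 CPM and Ly6g at 0 in all 3 libraries. Mouse B had the highest sum of both lists in the group. Macrophage sums were also above the NT range at 5.3 mg/kg (87.0 to 107 CPM) and in Brush (107 to 116 CPM). They overlapped NT at 21.2 mg/kg (70.5 to 127 CPM), in pacDNA-Scr (66.2 to 83.6 CPM) and in free L9 (40.7 to 64.7 CPM). The part of either list in the levels of Atf3 and Nr4a3 was not tested.

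At 5.3 mg/kg of pacDNA-L9, 0 of 10 members passed, as did 0% of all genes, and none was without overlap (0.297% of all genes). In this comparison 250 genes and 1 member, Nr4a3, had an unadjusted p under 0.05 (edgeR). Nr4a3 was at 11.0, 4.93 and 3.92 CPM in mice A, B and C and at 88.3 CPM in mouse D. The same mouse D had the highest Atf3 of all 30 mice, at 263 CPM against 42.1, 83.5 and 32.6 CPM in A, B and C. Jun (241 CPM) was also highest in D, while its Fos (20.5 CPM) lay inside the range of the other 3 mice and its Egr1 (12.6 CPM) just under theirs. Fos in the 4 mice was at 28.2, 9.90, 18.1 and 20.5 CPM, a narrower range than in NT, with a log2 fold change of -2.05 (SE 1.05, adjusted p = 1). The summed neutrophil markers were 3.74 CPM in D and 0.385 to 0.480 CPM in the others, and the macrophage sum of D, 92.0 CPM, was within the range of its group (87.0 to 107 CPM).

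At 21.2 mg/kg, 0 of 10 members passed (0.0514% of all genes), and 0 were without overlap (0.868%). The mouse of the second set stood apart from the other 2 in several members. Fos was at 89.0 and 158 CPM in mice A and B and at 5.41 CPM in C, the mouse of the second set, and Egr1 was at 57.8, 95.4 and 6.22 CPM. Nr4a3 ran the other way, at 2.11, 2.40 and 28.9 CPM. The log2 fold changes of these 3 genes against NT were 0.09, 0.53 and 0.58, each smaller than its standard error.

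Free L9 gave 0 of 10 members past the threshold (0.126% of all genes) and 0 without overlap (1.21%). Egr2 was at 2.77, 2.36 and 3.13 CPM in its 3 mice, each above at least 7 of the 8 NT mice (log2 fold change 0.96, SE 0.42, adjusted p = 0.467). Fos was at 149, 32.6 and 246 CPM and Egr1 at 80.8, 48.5 and 134 CPM, and both overlapped NT (log2 0.84 and 1.26). In Brush and in pacDNA-Scr, 0 of 10 members passed, as did 0% of all genes in either, and none of them reached an unadjusted p under 0.05, which 217 and 182 genes did (edgeR). No member was without overlap in either, against 2.8% of all genes for Brush and 2.35% for pacDNA-Scr. The pacDNA-Scr mice were at 240 and 133 CPM for Fos, the former just above the highest NT mouse, and at 7.26 and 15.9 CPM for Fosb, inside the NT range. Nr4a3 was at 4.51 and 48.3 CPM and Nr4a1 at 286 and 530 CPM. The higher value of each, in mouse B, was above every NT mouse. All 10 members had a log2 fold change above 0 in pacDNA-Scr against NT, where the median over all genes was -0.0257. The group held 2 mice and several members varied together between mice (below), so these are not 10 independent values. Leaving out 1 mouse at a time, the lowest values were -0.681 for Egr1 and Atf3, -0.730 for Nr4a3, -0.190 for Egr2 and -0.118 for Ier2. Fos, Fosb, Jun, Junb and Nr4a1 stayed above 0.

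The groups at the same dose of 5.3 mg/kg ask whether the polymer or the sequence changes the readout. Against free L9, pacDNA-L9 showed 4 members without overlap, all lower: Fos, Fosb, Egr1 and Egr2, where 4.26% of all genes did not overlap. Fos, Fosb and Egr1 varied together between mice (below), so the 4 are not independent counts. Egr1 was at 17.3, 13.3, 16.7 and 12.6 CPM in the pacDNA-L9 mice and at 80.8, 48.5 and 134 CPM in the free L9 mice. The pacDNA-L9 mice were closely spaced, and the lowest free L9 mouse was well above them. Its log2 difference was -2.55 (SE 0.88, adjusted p = 0.427). For Fos it was -2.89 (SE 1.21, adjusted p = 0.567), for Fosb -2.28 (adjusted p = 0.594) and for Egr2 -1.35 (SE 0.49, adjusted p = 0.452). None of the 10 passed, where 0.0114% of all genes did, and 5 had an unadjusted p under 0.05 by edgeR, as did 1409 of the 17518 genes. The Fosb difference turned to 0.46 with the term for the column names. Such names belong to 2 of the free L9 libraries and to none at 5.3 mg/kg of pacDNA-L9, so the term largely overlaps this comparison. Over all alternative settings the highest values of the other members were -1.67 for Egr1, -1.10 for Fos and -0.297 for Egr2. Macrophage sums were also separate, at 87.0 to 107 CPM with pacDNA-L9 and 40.7 to 64.7 CPM with free L9, and their part in these differences was not tested. Free L9 B had the lowest fibre marker sum (119016 CPM) and the highest adipocyte sum (347 CPM) of all 30 libraries, and without it the log2 difference was -2.82 for Egr1, -3.35 for Fos and -2.57 for Fosb, with none past the threshold.

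Against pacDNA-Scr, 5 members did not overlap, again lower with pacDNA-L9: Fos, Fosb, Junb, Egr1 and Ier2. This was 5 of 10, where 11.3% of all genes did not overlap in groups of 4 and 2. These 5 genes varied together between mice (r 0.651 to 0.872 in the first set, below), so they are not 5 independent counts. Junb was at 24.7, 14.5, 14.1 and 28.3 CPM with pacDNA-L9 and at 106 and 52.1 CPM with pacDNA-Scr. The largest log2 difference was that of Fos at -3.28 (SE 1.30, adjusted p = 0.882). No member passed, as 0% of all genes did, and 352 genes and 5 members had an unadjusted p under 0.05 (edgeR). The pacDNA-L9 mice are the same 4 in both comparisons.

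The spread between mice was itself large. The biological coefficient of variation, the between-mouse spread edgeR estimates within groups, was 0.981 for Fos, 0.909 for Nr4a3, 0.883 for Fosb, 0.747 for Egr1 and 0.706 for Junb, against a median of 0.335 over all genes tested. The fit held no term for the deposited set, so this spread includes the difference between sets in groups that hold both. Fos in NT had a median of 84.7 CPM in the first set and 9.8 CPM in the second. Its coefficient was 2.78 times the trend for genes of its abundance, and 95.1% of genes had a lower ratio. Jun (0.310) was at 0.84 times its trend, with 74.9% of genes lower, and Egr2 (0.441) at 0.53 times, with 32.8% lower, the latter with only 6 to 61 reads per library. Among the 6 NT mice of the first set alone, Fos differed 46.1-fold between the lowest and the highest mouse and Egr1 18.0-fold, but Atf3 only 2.86-fold and Jun 2.05-fold.

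The spread had an order. In the 24 mice of the first set, 20 of the 45 pairs of members were correlated past an adjusted p of 0.05 (Pearson r of log2(CPM + 1), two-sided permutation test, adjusted over 45 pairs), all 20 positively. By Spearman's rho 15 pairs passed. Fos and Egr1 had an r of 0.872 (rho 0.890), and Egr1 and Ier2 an r of 0.863 (rho 0.790), each with a permutation p of 1e-05, the smallest 100000 resamples can give, and an adjusted p of 6.43e-05. Leaving out the 2 mice farthest from the median of the first gene left 0.841 and 0.805.

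Fos, Fosb, Junb, Egr1 and Ier2, grouped here after the values were seen, formed the closest set. Their 10 pairs all passed, with r of 0.651 to 0.872 and a median of 0.825. As deviations from the group means, which removes differences between treatments, r was 0.560 to 0.895 and 7 of the 10 passed. Over all 45 pairs, 10 passed in that form, and the other 3 all held Nr4a1 (with Fosb, Jun and Junb). In the 6 mice of the second set, which the 24 did not include, r among the 5 genes was 0.906 to 0.997. There free L9 C was the highest mouse in each of the 5, with Fos at 246 CPM against 3.18 to 20.5 CPM in the others. It alone of that set had mitochondrial counts, and r without it was not computed. In the 6 NT mice of the first set r among the 5 genes was 0.812 to 0.971.

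The same mice were high in several of the genes. The 6 mice with the most Fos in the first set were pacDNA-Scr A, NT 6, NT 1, pacDNA-L9 21.2 mg/kg B, free L9 A and NT 3. Of these, 5 were among the top 6 for Junb, 5 for Egr1 and 5 for Ier2. It was 4 for Fosb, 3 for Egr2, 3 for Nr4a1 and 1 for Jun. The 6 mice came from 4 groups. None was among the top 6 for Atf3 or for Nr4a3, 0 of 6 in each.

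**Figure D3:**
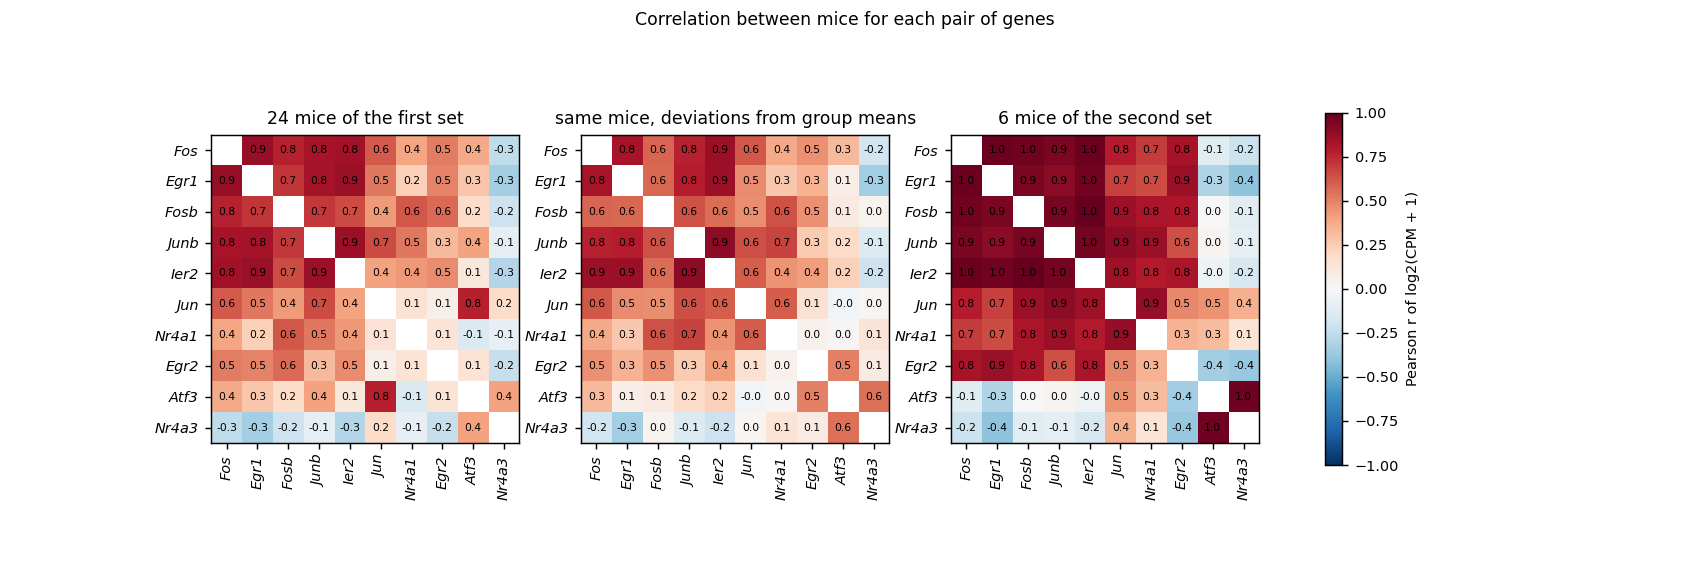
Pearson r of log2(CPM + 1) between mice for each pair of genes, printed in the cells to 1 decimal, in the 24 mice of the first set, in the same mice as deviations from group means, and in the 6 mice of the second set. The block of Fos, Egr1, Fosb, Junb and Ier2 lies between 0.651 and 0.872 in the left panel, and the rows of Atf3 and Nr4a3 are pale or blue against it.

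Atf3 and Nr4a3 stood outside this block. Their 10 pairs with the 5 genes had r of -0.336 to 0.403, and none passed by either measure. Atf3 was positive with each of the 5 (r 0.117 to 0.403), and Nr4a3 was negative with each (r -0.336 to -0.09). With each other they had an r of 0.404 in the first set (rho 0.443, permutation p = 0.0501 and 0.0314, adjusted p = 0.0928 and 0.0706). As deviations from group means r was 0.553 (adjusted p = 0.140, permutation). In the second set r was 0.974 (exact permutation p = 0.0167, n = 6), where the 5.3 mg/kg mouse D is the highest in both genes.

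Jun lay between the sets. It was correlated with Fos (r 0.617, rho 0.477, adjusted p = 0.00440 and 0.0541, permutation) and with Atf3 (r 0.775, rho 0.680, adjusted p = 0.000225 and 0.00162, permutation). The latter vanished within groups, where r was -0.03. Nr4a1 had r of 0.679 with Junb and 0.635 with Fosb within groups (adjusted p = 0.0358 and 0.00142, permutation). Egr2, the scarcest gene, had r of 0.569 with Fosb and 0.508 with Fos (rho 0.457 and 0.452), pairs that passed by r (adjusted p = 0.0108 and 0.0279, permutation) and not by rho (adjusted p = 0.0638 and 0.0643, permutation).

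**Figure D4:**
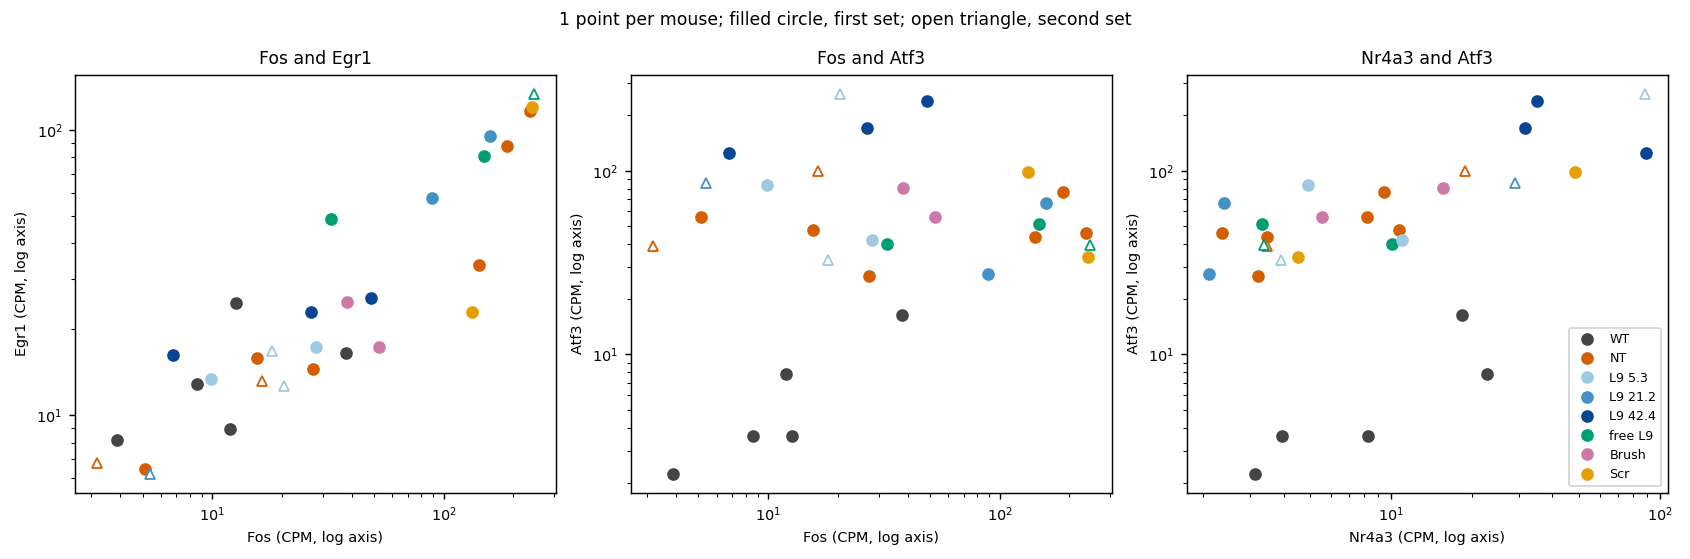
CPM of 1 gene against another on log axes, 1 point per mouse, coloured by group, with filled circles for the first set and open triangles for the second. Fos and Egr1 rise together (r 0.872 in the first set), while Fos and Atf3 are less close (r 0.380, not past the threshold). The 5 WT mice form the low edge of Atf3 and lie at 3.15 to 22.8 CPM of Nr4a3.

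A wider list of 50 immediate early and rapid response genes held 47 that were tested. In NT against WT 1 of the 47 was higher and none lower, where 4.97% of all genes passed. It was Ccn1, a matricellular protein induced by stretch, at 65.8 ± 36.5 CPM (SD, n = 8) against 27.7 ± 5.77 CPM (SD, n = 5), a log2 fold change of 1.25 (adjusted p = 0.0264, edgeR). The median of the list was 0.16. Without WT 1, 2, 3 or 4, or NT 3 or 6, no gene of the list passed (0), and 2 passed without NT 7 or the WT mouse with no number. With the first set only 4 passed, and under DESeq2 3.

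At 42.4 mg/kg 6 of the 47 were higher and none lower than in NT, where 1.92% of all genes were higher. An unadjusted p under 0.05 was found for 19 of the 47 and for 2294 of the 17518 genes. Those past the threshold were Maff (log2 3.19) and Mafk (1.52), small Maf leucine zipper proteins, Cebpd (2.72), a factor of acute phase responses, Csrnp1 (2.12), Errfi1 (1.70), a feedback inhibitor of EGF receptors, and Nfkbia (1.53), the inhibitor of NF-kappa-B. Cebpd was at 54.4 to 141 CPM against 5.38 to 23.7 CPM, without overlap (SE 0.40, adjusted p = 0.000244). Maff rested on 1 mouse more than the others: its range was 4.03 to 78.4 CPM against 1.95 to 6.41 CPM in NT. Without mouse B the list count fell to 1, Cebpd, and with the term for the column names 1 gene, Klf10, passed. It was 8 with the set as a covariate and 13 under DESeq2. No gene of the list passed in the other 7 comparisons (0 in each by edgeR, with 0 to 6 at an unadjusted p under 0.05).

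Of 29 kinases and promoter-bound factors upstream of these genes 28 were tested. In NT against WT, 2 were higher and 1 lower, where 3.44% and 1.54% of all genes were: the calcium-dependent kinase genes Camk2d (log2 0.93, SE 0.19, adjusted p = 0.00299) and Camk2b (0.52, adjusted p = 0.0393) and the JNK gene Mapk9 (-0.39, adjusted p = 0.0371). Camk2d was at 73.6 to 129 CPM in NT and 40.4 to 64.0 CPM in WT. Of the 3, only Camk2d passed without WT 3 or 4, without NT 3, 5 or 6, with library size alone, with no filter on low counts, with the first set only, with the replicate block and after removal of the 5 libraries lacking mitochondrial counts. Mapk9 also lost its call with the set as a covariate and with the term for the column names. At 42.4 mg/kg the SRF partner Elk4 was higher (0.66, SE 0.14, adjusted p = 0.00716), 1 of 28 where 2.57% of all genes passed. It did not pass without mouse B or with the term for the column names. No gene of this list passed in the other 7 comparisons (0 in each by edgeR, with 0 to 7 at an unadjusted p under 0.05).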

How the data were processed

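Quadriceps RNA of 30 mice was sequenced after poly(A) selection as paired reads. Per the labels, the authors aligned reads to GRCm39 (mm39) with HISAT2 2.0.5 and deposited raw counts per gene, which were used unchanged; the study names Rsubread among its R packages, and the counting function and strand setting are not given in the sources used here. Of 56748 gene IDs, 56017 matched GENCODE vM39, the source of exon lengths and overlaps. 1 WT column could be tied to its group only. The members and gene lists were chosen with earlier results of these data known.

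The main test was edgeR 4.0.16 (quasi-likelihood F-test, TMM, filterByExpr, R 4.3.3) in 1 fit of all 30 libraries with 8 group terms, adjusted by Benjamini-Hochberg over 17518 genes at a threshold of 0.05. DESeq2 1.42.0, named by the authors, was an alternative. The scripts were tested on simulated data. Nothing in the labels ties animals to separate litters or days, so p-values measure the spread between these mice. With no term for the deposited set in the main fit, that spread includes the difference between sets. The named genes were all members, up to 6 genes of each list past the threshold in a comparison, and the 8 genes nearest to the members' mean profile. Correlations used log2(CPM + 1), 100000 permutations, and exact permutations for the second set. Same-letter mice of the 5.3 mg/kg and free L9 groups deviated together (r 0.526, 0.414 and 0.637), the third pair being of the second set in both. Different-letter pairs within the first set were also positive (r 0.270 and 0.378), and pairs across the sets were negative (r -0.675 to -0.270). The letters were thus not shown to pair mice in these groups. The replicates of a group differed by more than sampling noise in every pair. Promoters came from RefSeq, GRCm38.p6, and no coordinate was converted.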

Additional observations from a re-analysis of the deposited data

Results flagged for a closer look

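Among 30 groups of 4 to 10 mice examined for a mouse far from the others of its group (10 genes in WT, NT and 5.3 mg/kg pacDNA-L9), 4 values stood out. The rule flags about 1 in 20 groups when values are independent and normally distributed. The same mice recur here across correlated genes with a wide spread, so that rate cannot be set against the 4. Fos in the WT mouse with no number was 37.8 CPM, where the next WT mouse had 12.6 CPM. Fosb in WT 2 was 0.449 CPM, below the next at 1.30 CPM. Fosb in NT 6 was 24.2 CPM against 4.39 CPM in the next NT mouse. Nr4a3 in mouse D of the 5.3 mg/kg group was 88.3 CPM, where the next had 11.0 CPM.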

How the results depend on the processing

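Of 1690 values of members under alternative settings, 1678 kept their side of the threshold, 12 newly passed, and no called value lost its call or sign (107 changes of sign were of values that never passed). In NT against WT, 2 members passed in every edgeR setting and 3 under DESeq2, which added Fos. At 42.4 mg/kg against NT the count of 0 became 2 (Atf3 and Nr4a3) with the first set only, with the set as a covariate, after removal of the 5 libraries with no mitochondrial counts (chosen after seeing the data) and under DESeq2, and 1 (Fosb, lower, log2 -3.45) with the term for the column names. A replicate block over the 4 libraries of pacDNA-L9 5.3 mg/kg and pacDNA-Scr that share letters gave 2 (Fos and Junb) against 0 without it; these letters do not pair mice (r 0.00223 and 0.0941). The replicate block changed no other member count: it gave 2 in NT against WT over numbers 1 to 4, which only share a number (r 0.0125 to 0.217), and 0 against free L9. The planned block over 5 numbers could not be fitted, since 1 WT column has none. Without each mouse in turn the count was 2 in NT against WT and 0 in all other comparisons, and correlated pairs numbered 16 to 22. As deviations from group means 10 pairs passed. The causes were not tested. Of 225 values of the named list genes, 62 lost their call and none its direction. Egr2 and Fosb are limited by counts (from 6 and 5 reads).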

Other observations

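Outside the members, the genes whose level followed the mean standardised profile of the 10 members most closely over the 24 mice of the first set were Otud1 (r 0.834), Btg2 (0.802), Dusp1 (0.786), Habp2 (0.777), Hes1 (0.775), Siah2 (0.752), 2310022B05Rik (0.732) and Ccn1 (0.725). Btg2, Dusp1 and Ccn1 are in the wider list. Dusp1 is a phosphatase that inactivates MAP kinases, Hes1 a Notch target and Siah2 a ubiquitin ligase. Of the 12596 genes with a mean of at least 1 CPM, 3.46% had an r above 0.5, and the median r was 0.00. Taken as deviations from group means, the 8 values were 0.606 to 0.833. These correlations share the 24 libraries and are given as a description.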
